A study of Drosophila melanogaster with 6 samples.

Results

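The genes described here encode the proteasome of *Drosophila melanogaster* and the paralogs of its subunits. Their probe sets were chosen by name, as those whose single gene symbol in the platform annotation began with Prosalpha or Prosbeta, or with Rpn or Rpt followed by a digit. This gave 41 probe sets for 39 genes, of 13966 probe sets and 10844 named genes on the array once controls were left out. Of the 41, 28 probe sets for 26 genes measured main subunits, and 13 measured paralogs, whose symbols add R, T or a numbered R or T to a main subunit's name. *Prosalpha7* and *Prosbeta6* had 2 probe sets each, called a and b here (142055_at and 142853_at for *Prosalpha7*, 141999_at and 142705_at for *Prosbeta6*).

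The study sorted cells of wing imaginal discs, the folded larval sheets from which the wing and notum of the fly develop, by a green fluorescent protein (GFP) reporter driven by regulatory DNA of *E(spl)m4*, and measured their RNA on Affymetrix arrays. Both groups came from discs of late third-instar E(spl)m4-GFP larvae, pooled for each sample, dissociated with trypsin and sorted on a threshold set with w1118 discs, which lack the reporter. The 3 GFP-positive samples took every cell above the threshold, and the 3 GFP-negative samples a fixed number of cells below it. GFP-positive cells are thus defined by the activity of a single reporter, not purified as a cell type. Separate dissections are not stated for the samples, so the p-values rest on the spread among these arrays and that spread may be technical.

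The proteasome is the protease that degrades proteins tagged with ubiquitin. Its core particle stacks alpha and beta rings, with the proteolytic sites inside the beta rings, and its regulatory particle has a base, whose ATPases unfold substrates and open the core, and a lid, which removes the ubiquitin chain. Flies also carry paralogs of many subunits, several of which are known from work in flies as genes of the male germline. In sensory organ precursors, the cells that proneural clusters give rise to, the proteasome degrades the repressor Tramtrack once a ubiquitin ligase has marked it.

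Per array, 4321, 4330 and 4541 probe sets were called Present in GFP-positive cells, against 5039, 4958 and 4382 in GFP-negative cells. Proneural markers separated the groups, with 4 of 6 tested probe sets higher (*E(spl)m4-BFM*, *E(spl)mdelta-HLH*, *phyl* and *Brd*). The summed signal of the list was between 8236 and 11630.2 units in GFP-positive cells, against 1646 to 2217 units in GFP-negative cells. *E(spl)m4-BFM* is the gene whose regulatory DNA drove the sorting reporter. That gene, *phyl* and *sc* could be tested only through their Present calls in GFP-positive cells, and *ase* and *sens* were called Absent on every array. Summed markers of adult muscle precursors gave 4172 to 4617 units in GFP-positive and 7094 to 7989 units in GFP-negative cells (2 of 4 tested lower, *twi* and *zfh1* Present on no array). The lower ones, *Him* and *htl*, could be tested only through their Present calls in GFP-negative cells. Most of the sum was *Ama* (log2 difference -0.50, limma adjusted p = 0.268), and *sns* lay the other way (0.53, adjusted p = 0.360). Summed markers of hemocytes gave 305 to 400 units in GFP-positive and 996 to 1413 units in GFP-negative cells (1 of 2 tested lower, 4 of 6 Present on no array). The lower one was *Col4a1*, tested only through its Present calls in GFP-negative cells. *Col4a1* and the untested *vkg* made most of that difference, and *srp* was not lower by the test (log2 difference -0.25, limma adjusted p = 0.881). Summed markers of glia gave 1090 to 1580 units in GFP-positive and 566 to 803 units in GFP-negative cells (1 of 2 tested higher). Most of that sum was *loco*, the higher one, tested only through its Present calls in GFP-positive cells. *repo* had a log2 difference of -0.09 (adjusted p = 0.937), and *moody* and *gcm* were not tested. Summed markers of the disc epithelium gave 6214 to 9740.3 units in GFP-positive and 8935 to 9788 units in GFP-negative cells. Of these 9 markers, 6 were Present on all 6 arrays (*vg*, *ap*, *pnr*, *ci*, *pdm2* and *en*, of which *en* was lower, log2 difference -2.13, limma adjusted p = 0.00165), and *nub*, *ara* and *caup* were Present on none. The part of these other cells in the values below was not tested, and in such bulk samples fewer cells of a type and less RNA per cell cannot be told apart.

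Main subunits and paralogs differed in detection. Of the 28 main-subunit probe sets, 26 were called Present on all 6 arrays, where 25.5% of all probe sets were. Of the 13 paralogs, 12 were Present on none, where 59.1% of all probe sets were. Counted over arrays, main subunits had 80 of 84 possible Present calls in GFP-positive cells and 79 of 84 in GFP-negative cells, and paralogs had 3 of 39 in GFP-positive cells and 0 of 39 in GFP-negative cells. All 3 paralog calls belonged to *Rpt3R*. The main subunits that were always Present had detection p-values of at most 0.0152, and the paralogs that were never Present had none below 0.110, with Present called below 0.04.

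**Figure D1:**
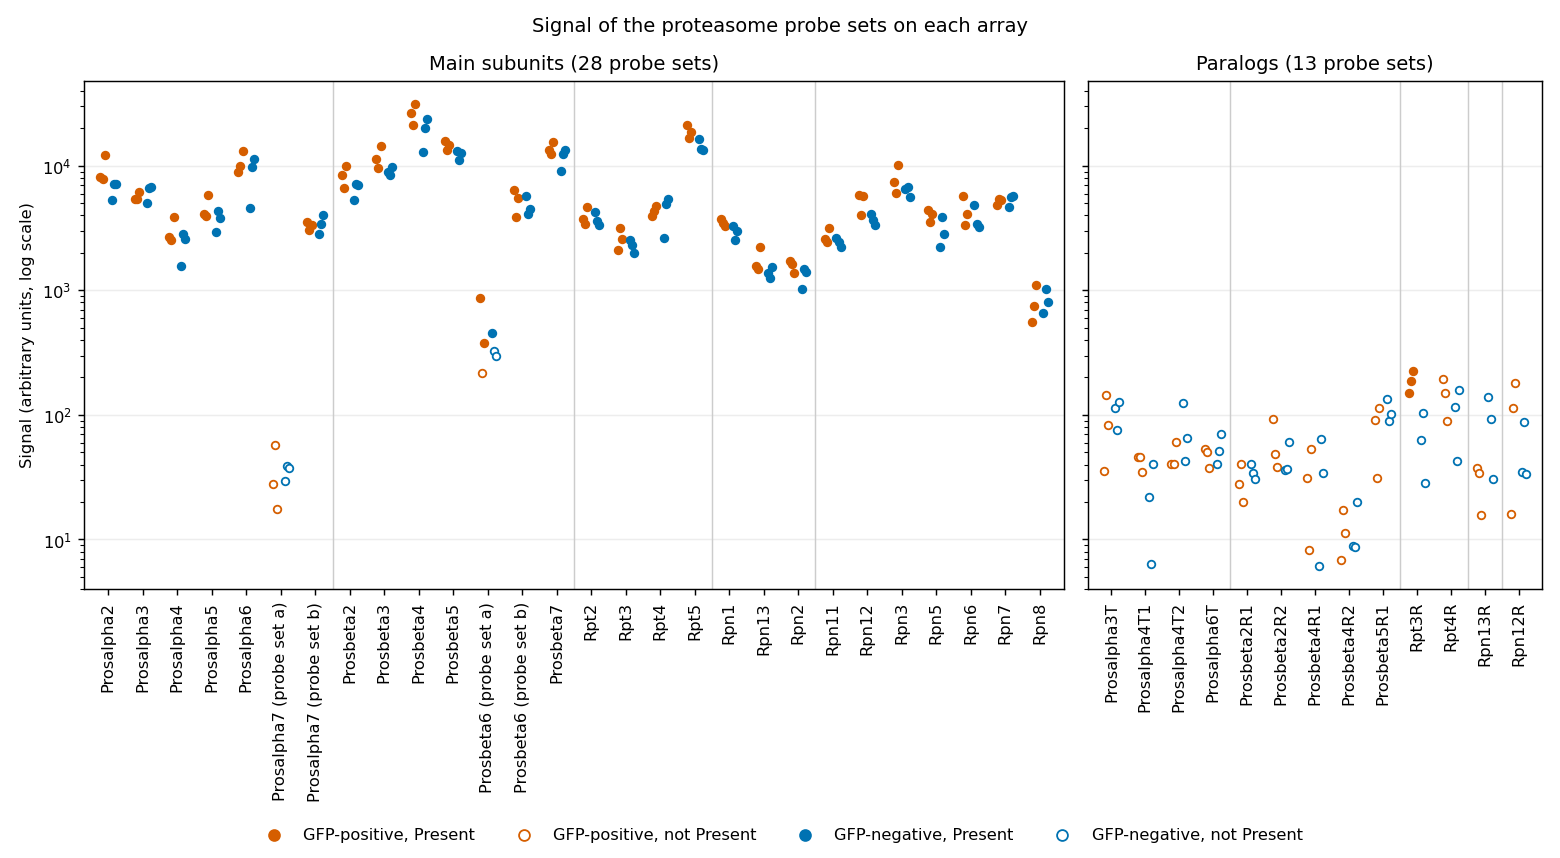
Signal of each probe set on each array, in arbitrary units on a log scale, with main subunits on the left and paralogs on the right (orange, 3 GFP-positive arrays; blue, 3 GFP-negative arrays; filled points, called Present). Nearly all main-subunit points are filled in both groups, and among the paralogs only the 3 GFP-positive points of Rpt3R are.

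The test took probe sets with a Present call on 2 or more arrays of either group, and kept 28 of the 41 members (27 main subunits and *Rpt3R*) and 35.4% of all probe sets. None of the 28 passed limma's test at an adjusted p of 0.05, where 2.99% of all 4943 tested probe sets did (1.25% higher and 1.74% lower in GFP-positive cells). With the replicate number as a block, 1 of the 28 passed, *Rpt3R*, against 5.20% of all tested. At an unadjusted p of 0.05, 1 of the 28 passed, *Rpt3R*, against 14.0% of all tested. The groups did not overlap for 5 of the 28 (*Prosalpha2*, *Prosbeta5*, *Rpt5*, *Rpn1* and *Rpt3R*), a share below the 20.8% of all tested. *Rpt3R* passed the filter through GFP-positive arrays alone, so its direction is not counted. Of the 27 main-subunit probe sets, 4 were separated, all higher in GFP-positive cells, where 9.43% of all tested were separated in that direction.

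The alpha ring forms the gate of the core. Of its 6 tested probe sets, 4 had a positive and 2 a negative difference, with a median log2 difference (GFP-positive minus GFP-negative) of 0.36. *Prosalpha2* stood at the upper end, with signals of 8080.2, 7804 and 12304 units in GFP-positive cells, against 5316, 7126 and 7111 units in GFP-negative cells. Every GFP-positive array lay above every GFP-negative array, and GFP-positive array 3 stood well above the other two. Its log2 difference was 0.51 (SE 0.24, 95% interval -0.03 to 1.05, limma adjusted p = 0.399). *Prosalpha3* stood at the lower end, with 5385, 5424 and 6215 units in GFP-positive cells, against 5035, 6671 and 6738 units in GFP-negative cells. GFP-negative arrays were both the lowest and the highest, and the log2 difference was -0.11 (SE 0.21, 95% interval -0.57 to 0.36, adjusted p = 0.869). *Prosalpha4*, *Prosalpha5* and *Prosalpha6* lay between, each with its lowest signal on GFP-negative array 1 and its highest on GFP-positive array 3. For *Prosalpha6* these extremes were 13111 units on GFP-positive array 3 and 4566 units on GFP-negative array 1.

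The probe sets of *Prosalpha7* disagreed in detection. Probe set b was Present on all 6 arrays, with 3547, 3064 and 3327 units in GFP-positive cells and 2863, 3427 and 4060.4 units in GFP-negative cells, overlapping groups with a log2 difference of -0.05 (adjusted p = 0.948). Probe set a was Absent on all 6 and was not tested, with 27.9, 57.5 and 17.6 units in GFP-positive cells and 29.6, 38.7 and 37.5 units in GFP-negative cells. It is the main-subunit probe set that the filter left out, and the gene's level is read here from probe set b alone.

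The beta ring carries the proteolytic sites, the trypsin-like one in *Prosbeta2* and the chymotrypsin-like one in *Prosbeta5*. All 7 tested probe sets of the ring had a positive difference, with a median of 0.26 on the log2 scale, and none passed the test. *Prosbeta4*, a structural subunit, was highest, with 26700, 21349 and 31315 units in GFP-positive cells, against 12918, 20122 and 23985 units in GFP-negative cells. The groups overlapped through GFP-positive array 2 and GFP-negative array 3. Its log2 difference was 0.51 (SE 0.26, 95% interval -0.07 to 1.08, adjusted p = 0.419). *Prosbeta5* had 15748, 13533 and 14785 units in GFP-positive cells, against 13143, 11052 and 12577 units in GFP-negative cells, so that no GFP-negative array reached a GFP-positive one. Its differences within the same-numbered pairs of arrays were 0.26, 0.29 and 0.23, nearly equal, and its overall difference of 0.26 did not pass (95% interval -0.16 to 0.68, adjusted p = 0.605). *Prosbeta3* and *Prosbeta7*, further structural subunits, overlapped between the groups. *Prosbeta3* had 11353, 9638 and 14453 units in GFP-positive cells, against 8978, 8428 and 9744 units in GFP-negative cells, where only GFP-positive array 2 fell inside the GFP-negative range. *Prosbeta2* had 8375, 6649 and 9945 units in GFP-positive cells, against 5334, 7189.9 and 6998 units in GFP-negative cells. Its GFP-positive array 2 lay below GFP-negative arrays 2 and 3. *Prosbeta2* showed a log2 difference of 0.35 (95% interval -0.16 to 0.86, adjusted p = 0.553).

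*Prosbeta6*, another structural subunit, stood at the lower end of the ring through its probe set b, with 6452, 3904 and 5521 units in GFP-positive cells and 5685, 4077 and 4533 units in GFP-negative cells. Array 2 was the lowest of both groups, which overlapped, and the log2 difference was 0.13 (95% interval -0.41 to 0.68, adjusted p = 0.857). Probe set a gave 868, 216 and 381 units in GFP-positive cells, against 455, 329 and 297 units in GFP-negative cells. It was Present on arrays 1 and 3 of the GFP-positive group and on array 1 of the GFP-negative group, so it passed the filter through GFP-positive arrays alone. Its interval, -0.71 to 1.17 around 0.23, was the widest of the 27 main-subunit probe sets tested.

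The base of the regulatory particle holds the Rpt ATPases, which form a ring on the core, and scaffold subunits. All 4 tested ATPases had positive differences, with a median of 0.12. *Rpt5* was highest, at 21358, 16857 and 18706 units in GFP-positive cells, against 16409.5, 13765 and 13495 units in GFP-negative cells. All GFP-positive arrays lay above all GFP-negative ones, by 0.38, 0.29 and 0.47 within the 3 pairs. The overall log2 difference was 0.38 (SE 0.20, 95% interval -0.05 to 0.81, adjusted p = 0.418). *Rpt4* was lowest, at 3959, 4339 and 4761 units in GFP-positive cells, against 2627, 4961 and 5386 units in GFP-negative cells. The GFP-negative arrays spanned the whole GFP-positive range, and the differences within pairs had both signs (0.59, -0.19 and -0.18), so the difference of 0.07 has no settled direction (95% interval -0.55 to 0.70, adjusted p = 0.938). *Rpt2* had 3748, 3423 and 4649 units in GFP-positive cells and 4263, 3584 and 3335 units in GFP-negative cells. Its signals, like those of *Rpt3*, overlapped between the groups.

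Of the base subunits that are not ATPases, *Rpn1* and *Rpn2* are the large scaffolds and *Rpn13* is a ubiquitin receptor. All 3 had positive differences, within a narrow range of 0.26 (*Rpn1*) to 0.31 (*Rpn13*). *Rpn1* had 3722, 3483 and 3293 units in GFP-positive cells, against 3285, 2525 and 2987 units in GFP-negative cells. The groups did not overlap, with GFP-positive array 3 just above GFP-negative array 1, and the test was not passed (95% interval -0.19 to 0.71, adjusted p = 0.636). *Rpn13* had 1568, 1481 and 2235 units in GFP-positive cells and 1381, 1268 and 1536 units in GFP-negative cells. GFP-negative array 3 lay above GFP-positive array 2, so the groups overlapped (95% interval -0.20 to 0.82, adjusted p = 0.613).

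The lid holds *Rpn11*, the metalloprotease that cuts the ubiquitin chain from the substrate, and *Rpn8*, its partner. Of 7 tested lid probe sets, 5 had a positive and 2 a negative difference, with a median of 0.19. *Rpn12* was highest, with 5815, 4019 and 5678 units in GFP-positive cells, against 4090.2, 3669 and 3327 units in GFP-negative cells. Arrays 1 and 3 of the GFP-positive group lay above the GFP-negative group, and array 2 lay inside it. Its log2 difference was 0.47 (SE 0.22, 95% interval -0.03 to 0.96, adjusted p = 0.397). *Rpn8* was lowest, with 555, 746 and 1102 units in GFP-positive cells and 655, 1021 and 803 units in GFP-negative cells. The GFP-positive arrays held both the lowest and the highest value, around a log2 difference of -0.08 (95% interval -0.71 to 0.56, adjusted p = 0.937). *Rpn5* came close to *Rpn12*, with 4461, 3554 and 4073 units in GFP-positive cells, against 2238, 3905 and 2821 units in GFP-negative cells. Its pairs differed by 0.99, -0.14 and 0.53, the largest in pair 1, where GFP-negative array 1 was low (adjusted p = 0.434). *Rpn11* itself had 2598, 2447 and 3165 units in GFP-positive cells, against 2614, 2450.2 and 2216 units in GFP-negative cells, which overlap, and a log2 difference of 0.17 (adjusted p = 0.776).

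**Figure D2:**
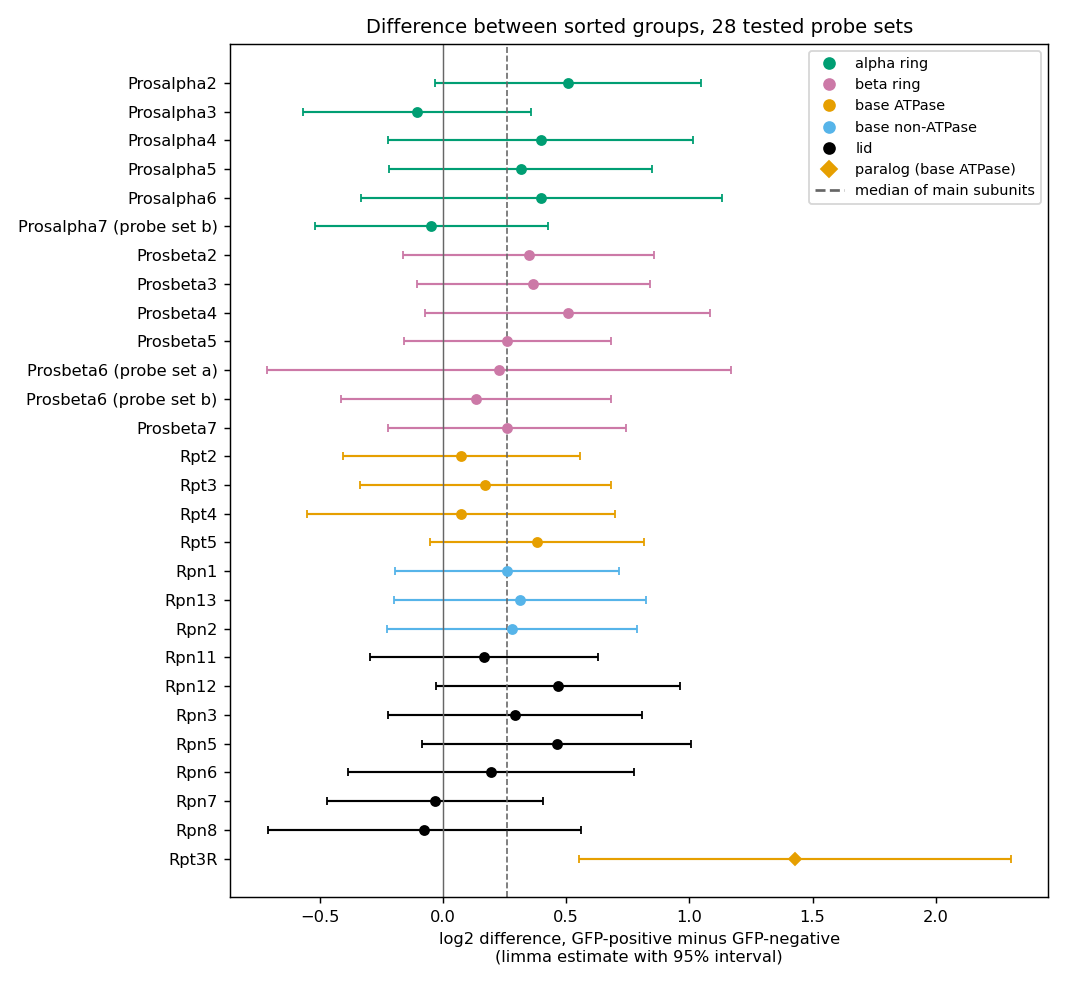
Log2 difference, GFP-positive minus GFP-negative, of the 28 tested probe sets with the 95% interval of the limma fit, coloured by the place of the subunit in the complex. Every main-subunit interval crosses 0 while 23 of 27 points lie right of it, and Rpt3R stands alone at 1.43.

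Taken as 1 group, the 27 tested main-subunit probe sets had 23 positive and 4 negative differences (the negative ones *Prosalpha3*, *Prosalpha7* b, *Rpn7* and *Rpn8*), where 48.7% of all tested probe sets were positive. Of the 26 that were Present on all 6 arrays 22 were positive, against 48.6% of all such probe sets. Their median was 0.26, against -0.01 for all tested. The differences ran from -0.11 to 0.51 and their SD was 0.177. That of all tested probe sets, which were not matched to the subunits for signal level, was 0.527. The median absolute difference, 0.262, was nearly that of all tested, 0.259, and 51.6% of all tested probe sets fell within the subunits' range. For 21 of the 27 the 95% interval lay inside 1 log2 unit on either side of 0. The median was 0.31 for 13 core probe sets and 0.23 for 14 of the regulatory particle, a difference that was not tested. Probe sets are not replicates, since all 27 were read from the same 6 arrays.

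Across pairs of arrays with the same number, the median of the main subunits was 0.34 in pair 1, -0.01 in pair 2 and 0.38 in pair 3. The positive shift was thus seen in 2 of 3 pairs, with 23, 12 and 22 of the 27 probe sets positive. Over all tested probe sets the medians were -0.01, -0.01 and -0.02. Pair 1 was hybridised on another day than pairs 2 and 3. The 2 arrays of a pair shared a chip lot in pairs 1 and 3 but not in pair 2. The part of day and lot in these pair values was not tested. All 3 pairs were positive for 10 of the 27 probe sets, where 883 of 4943 were among all tested.

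Relative to each probe set's mean over the 6 arrays, the median of the main subunits was 0.09, -0.05 and 0.29 on the GFP-positive arrays and -0.19, -0.06 and -0.09 on the GFP-negative arrays. GFP-positive array 3 and GFP-negative array 1 stood farthest apart, and GFP-positive array 2 was level with the GFP-negative arrays 2 and 3. Of the 27 probe sets, 13 were highest on GFP-positive array 3 and 13 were lowest on GFP-negative array 1. The alpha ring showed this most, with medians of 0.51 on GFP-positive array 3 and -0.50 on GFP-negative array 1, while the base ATPases reached 0.17 and 0.03 there. The same medians over all tested probe sets stayed between -0.01 and 0.03. Without GFP-positive array 3 the subunits' median was 0.205, and without GFP-positive array 2 it was 0.369, the lowest and highest values with 1 array left out.

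**Figure D3:**
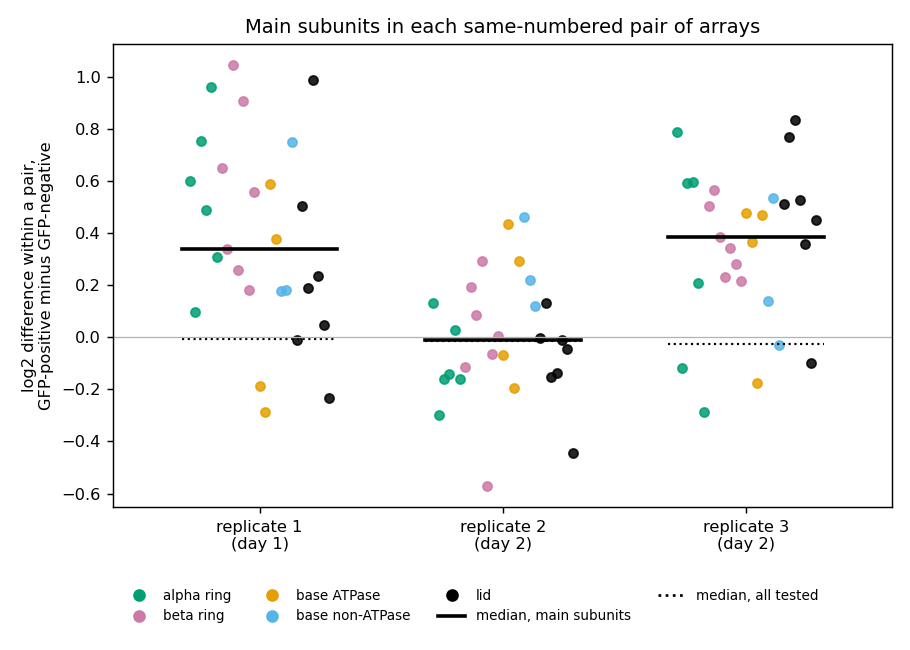
Log2 difference within each pair of same-numbered arrays, GFP-positive minus GFP-negative, for the 27 tested main-subunit probe sets (points, coloured by place in the complex; solid line, their median; dotted line, median of all tested probe sets). The subunits' median is 0.34 in pair 1 and 0.38 in pair 3, and it meets the dotted line at -0.01 in pair 2.

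When the tested probe sets were ranked by mean log2 signal and cut into 5 classes, a division made after seeing the data, 23 of the 27 main subunits fell in the brightest. The 989 probe sets of that class had a median of 0.03, with 53.4% positive, and its 23 subunits had a median of 0.26, with 20 positive. RNA quality measures did not separate the groups. The 3'/5' signal ratio of actin was 33.9, 45.7 and 20.4 on GFP-positive arrays and 22.3, 31.2 and 73.1 on GFP-negative arrays. For GAPDH it was 42.7, 27.3 and 17.2 on GFP-positive arrays and 33.6, 19.3 and 29.5 on GFP-negative arrays. Signal from the 3' end thus far exceeded that from the 5' end on every array. The part of this in the Absent calls was not tested.

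Among the paralogs, *Rpt3R* was the only one that passed the filter. It is a paralog of the base ATPase *Rpt3*. Its signals were 151, 187 and 226.5 units in GFP-positive cells, against 63.3, 103 and 28.6 units in GFP-negative cells. Every GFP-positive array was called Present and every GFP-negative array Absent, and the groups did not overlap. The detection p-values behind the calls were 0.0152, 0.0368 and 0.0129 on the GFP-positive arrays and 0.136, 0.216 and 0.538 on the GFP-negative arrays. GFP-positive array 2 was therefore close to the limit of 0.04 for a Present call.

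*Rpt3R* averaged 188 ± 37.8 units in GFP-positive cells, against 65.0 ± 37.3 units in GFP-negative cells (SD, n = 3 each). Its log2 difference was 1.43 (SE 0.39, 95% interval 0.55 to 2.31). The limma p was 0.00459 and the adjusted p was 0.0982, which missed the threshold. With the replicate number as a block the adjusted p was 0.0422 and the threshold was passed, although the numbers paired the arrays only weakly beyond pair 1. With each GFP-negative signal raised to at least its array's lowest Present signal, the fold was 2.64, against 2.69 in the fit. Only GFP-negative array 3 was changed by this. The value of 2.64 is not a lower limit, as it leaves out the spread between arrays. *Rpt3R* passed the filter through the GFP-positive arrays alone, so it could be tested only because it was high there. All 3 pairs were positive (1.07, 0.77 and 2.44).

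*Rpt3* had 2094, 3159 and 2572 units in GFP-positive cells and 2556, 2329 and 1992 units in GFP-negative cells. The groups overlapped, and the log2 difference was 0.17 (95% interval -0.34 to 0.68, adjusted p = 0.795). A planned test of the ratio of *Rpt3R* to *Rpt3* between the groups is not reported, because *Rpt3R* was Absent on all 3 GFP-negative arrays and entered the test only through the GFP-positive ones.

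**Figure D4:**
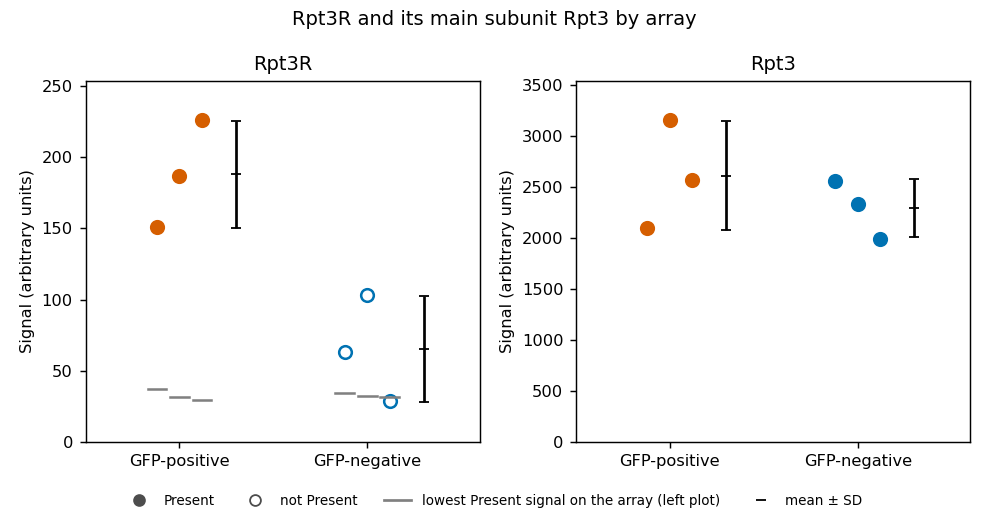
Signal of Rpt3R (left) and Rpt3 (right) on each array, in arbitrary units, with the mean and SD of each group beside the points (filled, called Present; open, not Present; short grey lines, each array's lowest signal among Present calls). The 3 GFP-positive points of Rpt3R, between 151 and 226.5 units, lie above its GFP-negative points, while the Rpt3 groups overlap.

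The other 12 paralogs gave signals between 6.1 and 193.9 units and were Present on no array, so their values have no settled level and were not tested. Of the 4 alpha-ring paralogs, *Prosalpha3T* had 35.3, 143.5 and 82.7 units in GFP-positive cells and 113.5, 75.1 and 128.0 units in GFP-negative cells. *Prosalpha6T* had 53.6, 50.8 and 37.6 units in GFP-positive cells and 40.5, 51.2 and 69.8 units in GFP-negative cells. In both the groups overlapped. *Prosalpha4T1* reached 46.1 units in GFP-positive and 40.2 units in GFP-negative cells, and *Prosalpha4T2* reached 60.6 units in GFP-positive and 125.0 units in GFP-negative cells.

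The 5 beta-ring paralogs (*Prosbeta2R1*, *Prosbeta2R2*, *Prosbeta4R1*, *Prosbeta4R2* and *Prosbeta5R1*) overlapped between groups as well. *Prosbeta4R1* and *Prosbeta4R2*, have 1 gene between them in the RefSeq gene order. *Prosbeta4R1* read 31.2, 8.2 and 53.0 units in GFP-positive cells, against 6.1, 64.5 and 34.0 units in GFP-negative cells. *Prosbeta4R2* read 6.9, 17.4 and 11.3 units in GFP-positive cells, against 8.8, 8.7 and 20.1 units in GFP-negative cells. Both genes held low and high arrays in each group. *Prosbeta5R1* had 91.3, 31.0 and 113.3 units in GFP-positive cells, against 135.1, 89.1 and 102.1 units in GFP-negative cells. Its detection p on GFP-negative array 1 was 0.110, the lowest among these 12 paralogs together with that of *Prosalpha3T* on the same array.

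*Rpt4R*, the other ATPase paralog, read 193.9, 150.9 and 89.6 units in GFP-positive cells and 116.7, 42.7 and 157.3 units in GFP-negative cells. The groups overlapped and each array was called Absent, with detection p-values of 0.275 to 0.487. *Rpn13R* had 37.7, 34.0 and 15.8 units in GFP-positive cells, against 140.5, 92.6 and 30.4 units in GFP-negative cells. *Rpn12R* had 16.1, 112.8 and 179.4 units in GFP-positive cells, against 35.1, 88.0 and 33.6 units in GFP-negative cells. Both ranges overlapped. Of 13 markers of testis or germline with a probe set, 12 were Present on no array and *mia* was Present on GFP-negative array 1 alone, with a summed signal between 1409 and 1864 units in GFP-positive cells and between 885 and 2082 units in GFP-negative cells.

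Lists of genes that work with the proteasome held 54 genes, of which 45 had a probe set and 37 were tested, and none of these passed at an adjusted p of 0.05 (2.99% of all tested did). With an unadjusted p of 0.05, 1 of the 37 passed, against 14.0% of all tested. The difference was positive for 25 and negative for 12, where 48.7% of all tested were positive, and the median was 0.13. The median was 0.21 for 7 tested shuttle factors and segregase subunits, 0.19 for 6 ubiquitin genes and conjugation enzymes and 0.17 for 8 subunits of the COP9 signalosome, which removes Nedd8 from cullin ligases. It was -0.12 for 9 components of cullin ligases, with 4 positive and 5 negative, and of 7 proteasome regulators and assembly factors 3 were positive and 4 negative.

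The 1 gene with an unadjusted p under 0.05 was *CSN8* of the signalosome, at 4124, 3385 and 5919 units in GFP-positive cells, against 2582, 3259 and 3095 units in GFP-negative cells. The groups did not overlap, and its log2 difference of 0.55 had a limma p of 0.0494 and an adjusted p of 0.355. At the upper ends of the other lists stood *Rad23*, a shuttle for ubiquitinated substrates (0.55, adjusted p = 0.382), and *RpL40*, which encodes ubiquitin fused to a ribosomal protein (0.43, adjusted p = 0.416). *Usp14*, a deubiquitinase on the proteasome (0.50, adjusted p = 0.49), and *Cul3* (0.39, adjusted p = 0.532) were the others. At the lower ends stood *rngo* (-0.22, adjusted p = 0.803), *Ubc7* (0.04, adjusted p = 0.980), *Uch-L5*, another deubiquitinase (-0.30, adjusted p = 0.604), and *Cul1* (-0.29, adjusted p = 0.595). *CSN3* had the lowest difference in the signalosome (-0.24, adjusted p = 0.668). Of 14 heat-shock genes, 5 were tested and none passed, with 3 positive, 2 negative and a median of 0.06. They ran from *stv* (-0.22, adjusted p = 0.802) to *Hsp27* (0.32, adjusted p = 0.451).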

How the data were processed

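Total RNA of 3 GFP-positive and 3 GFP-negative sorted samples was measured on Affymetrix Drosophila arrays of 14010 probe sets, 44 of them controls. The deposited values are linear intensity, Affymetrix's Signal per the file headers, which the authors scaled to a target of 500 on each array, with scaling factors of 4.40 to 6.52. The deposited detection p-value of each probe set gave its call (Present below 0.04, Absent from 0.06 on), per the file headers. Signals were used as deposited, transformed as log2(signal + 16) and compared with limma 3.58.1 in R 4.3.3 (group as the only term, trended eBayes, two-sided, Benjamini-Hochberg over all 4943 tested probe sets). Fold changes on this scale understate those of dim genes. The number of arrays limits the precision.

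Groups and replicate numbers came from the sample titles. Deviations from the group means correlated by 0.40, 0.10 and 0.12 in the 3 same-numbered pairs, over 4943 probe sets, and by -0.35 to 0.22 in the others, the highest for GFP-positive array 3 with GFP-negative array 2. Every same-numbered pair was above 0.1, if barely in pair 2, so the block fit is given where it changes a call. The platform annotation named 1 gene for 12443 probe sets, more than 1 gene for 327, and left 1196 unnamed. Symbols were updated with a RefSeq gene table, which holds 48 genes of these names. *Prosalpha1*, *Prosalpha1R*, *Prosbeta1*, *Prosbeta5R2*, *Rpn9*, *Rpn10*, *Rpt1*, *Rpt6* and *Rpt6R*, 9 genes without a single-symbol probe set, were not analysed here. Members, lists and tests were chosen with earlier results of these data known. Named genes were all paralogs, the main subunits with the highest and lowest difference in each place of the complex, those not tested, and list genes at the ends of a list. Other subunits, chosen for their function or for separated groups, were named after their values were seen. The fit was tested on simulated data. Alternatives were other pseudocounts, filters, scalings, blocks and subsets of arrays, and each array left out in turn.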

Additional observations from a re-analysis of the deposited data

How the results depend on the processing

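No main subunit passed the threshold under any setting, and the median of the tested main subunits stayed positive throughout. It was 0.22 after quantile normalization (all tested probe sets -0.03) and 0.15 after scaling to equal medians (all tested -0.12, so 0.27 relative to that shift). It was 0.21 on day 2 alone and 0.205 to 0.369 with 1 array left out. With the chip lot as a block it was 0.36, and on the lot of 3 arrays, which holds 1 GFP-positive array, 0.37. GFP-positive array 2, the only array of its lot, has no weight in these 2 settings. They are therefore not separate from leaving that array out (0.369). With the replicate number as a block 1 member passed, *Rpt3R*, with a log2 difference of 1.43 and an adjusted p of 0.0422, against 0 members without it. Outside that block its adjusted p lay between 0.0651 and 0.771, with a difference of 0.78 to 1.76. The count over all probe sets, 148, was 257 with the replicate block, 229 with the day as a block, 97 with no filter, 50 with only probe sets Present on all arrays, 76 on day 2 alone, 84 on the lot of 3 arrays (1 residual degree of freedom) and 69 to 153 with 1 array left out (69 without GFP-negative array 2, 78 without GFP-positive array 1, 84 without GFP-positive array 3, 98 without GFP-negative array 3). The cause of these moves was not tested. Scaling to equal medians gave 54 higher and 119 lower calls, against 62 higher and 86 lower as deposited.

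Among the subunits named as lowest in their place in the complex, *Prosalpha3* stayed negative and *Rpn1* positive under every setting run, and the other 3 changed sign. *Rpt4* gave -0.042 after scaling to equal medians, -0.000359 with the lot as a block, -0.18 on day 2 alone and -0.25 to 0.26 with 1 array left out. *Rpn8* gave 0.00276 on day 2 alone and -0.33 to 0.16 with 1 array left out, and *Prosbeta6* probe set b gave -0.023 to 0.34. The subunits named as highest kept their sign, but their size moved with the setting. *Prosalpha2* gave 0.30 to 0.63, *Prosbeta4* 0.23 to 0.73 and *Rpt5* 0.16 to 0.51. *Rpn13* gave 0.13 to 0.42 and *Rpn12* 0.35 to 0.66.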

Other observations

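Sem1, the small lid subunit also called Rpn15, does not carry a name of the chosen form and was looked at separately, after its values were seen. It was Present on all 6 arrays, with 6425, 8101 and 7631 units in GFP-positive cells and 6121, 10448 and 10921 units in GFP-negative cells. The groups overlapped, and its log2 difference of -0.27 did not pass limma's test (SE 0.26, 95% interval -0.84 to 0.30, adjusted p = 0.695). Its differences within the pairs had both signs (0.07, -0.37 and -0.52), so its direction, like those of *Rpn7* and *Rpn8*, is not settled.

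A further probe set, also looked at after its values were seen, carries the symbols of both *Prosalpha1*, the remaining alpha-ring subunit, and its paralog *Prosalpha1R*, so its signal is the level of neither gene alone. It was Present on all 6 arrays, with 6785, 5632 and 8865 units in GFP-positive cells and 6001, 7578 and 7370.1 units in GFP-negative cells. The groups overlapped around a log2 difference of 0.01 (SE 0.23, 95% interval -0.50 to 0.51, adjusted p = 0.997).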
